A study of Mus musculus with 9 samples.

Results

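Complement genes were followed through the lungs of mice challenged with ovalbumin, an allergen used to model allergic asthma, with and without the oxidative stress protein DJ-1. The set was 9 genes matched by symbol among the 55851 genes of the expression table: C1qa, C1qb, C1qc, C3, C4b, Cfb, Cfp, C3ar1 and C5ar1. Each symbol matched, and all 9 were among the 17716 genes whose mean level was high enough to test. RNA of total lung cells was sequenced in 9 libraries from female C57BL/6J mice, all with a time label of 7 weeks. The 3 groups had 3 libraries each. DJ-1 KO OVA was the DJ-1 knockout given ovalbumin (DJ1_KO_OVA_263, DJ1_KO_OVA_266 and DJ1_KO_OVA_267), WT OVA was the wild type given ovalbumin (replicates 5, 6 and 9), and WT PBS was the wild type given phosphate-buffered saline in its place (replicates 1, 2 and 3). There was no knockout group given saline, and the labels do not describe the knockout allele or the cells it acts in. They also do not say whether each library came from a separate animal, so p-values measure the spread between these libraries, which may be technical.

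Complement is a cascade of secreted proteins that tags particles and cells for uptake and releases small peptides that attract leukocytes. The classical pathway starts when C1q binds antibody or damaged surfaces, the alternative pathway runs on factor B and is stabilised by properdin, and both cleave C3. Cleavage of C3 and C5 frees the peptides C3a and C5a, which act through C3ar1 and C5ar1, and in mouse models of allergic asthma both peptides are known to shape the airway response. The liver makes most plasma complement, while macrophages are a known source of C1q in tissues.

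The stretches before the start sites of 4 members are shown because C3 and C5ar1 moved in opposite directions in the knockout libraries and because the neighbouring C1qb and C1qc moved almost as one gene. The RefSeq promoter table (build GRCm38.p6) held 6 of the 9 members; C1qa, C4b and Cfb had no entry. All 4 stretches are the 250 bases before the RefSeq start on the minus strand, at chr17:57228137-57228386 for C3, chr7:16259339-16259588 for C5ar1, chr4:136886201-136886450 for C1qb and chr4:136892915-136893164 for C1qc. The RefSeq start was the deposited start for C3, and lay 13 bases outside the deposited gene for C1qb, and 151 bases inside it for C1qc and 202 bases inside it for C5ar1. Capitals mark matches, on either strand, to 8 motifs searched. These were GAGGAA (PU.1), TTGCNNAA (C/EBP), GGGA and CC with any 4 bases between (NF-kB), TTCNNNGAA (STAT), TTC and GAA with any 4 bases between (STAT6), TGCTGA (MAF), GAAA repeated after any 2 bases (interferon response) and TGANTCA (AP-1).
C3: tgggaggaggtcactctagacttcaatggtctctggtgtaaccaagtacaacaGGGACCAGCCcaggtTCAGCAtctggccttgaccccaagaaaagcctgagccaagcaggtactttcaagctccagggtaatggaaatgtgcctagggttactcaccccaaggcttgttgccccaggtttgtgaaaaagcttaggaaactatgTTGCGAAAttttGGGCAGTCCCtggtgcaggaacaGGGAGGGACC
C5ar1: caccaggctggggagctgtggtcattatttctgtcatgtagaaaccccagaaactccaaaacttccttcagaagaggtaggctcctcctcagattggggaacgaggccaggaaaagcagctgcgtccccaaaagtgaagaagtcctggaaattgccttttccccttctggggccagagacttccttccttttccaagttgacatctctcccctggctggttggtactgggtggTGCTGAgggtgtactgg
C1qb: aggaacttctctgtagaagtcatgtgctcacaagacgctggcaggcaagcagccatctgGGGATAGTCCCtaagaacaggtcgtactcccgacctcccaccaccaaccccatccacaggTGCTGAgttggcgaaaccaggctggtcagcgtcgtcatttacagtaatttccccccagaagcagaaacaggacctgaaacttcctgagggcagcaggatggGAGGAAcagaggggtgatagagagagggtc
C1qc: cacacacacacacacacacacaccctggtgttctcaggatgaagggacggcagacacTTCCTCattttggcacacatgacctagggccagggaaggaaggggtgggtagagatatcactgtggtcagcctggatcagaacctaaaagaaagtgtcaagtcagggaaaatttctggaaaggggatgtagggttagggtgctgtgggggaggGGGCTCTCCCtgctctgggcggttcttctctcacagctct
C3 held 3 matches to the NF-kB letters, at -197 to -188, at -33 to -24 on the opposite strand and at -10 to -1, counted from the start site. It also held a C/EBP match at -45 to -38 and a MAF match at -182 to -177 on the opposite strand. C1qb and C1qc shared matches to the PU.1 and NF-kB letters at different positions. The PU.1 match was at -30 to -25 in C1qb and at -193 to -188 on the opposite strand in C1qc. The 2 NF-kB matches of C1qb, at -191 to -182 and at -190 to -181 on the opposite strand, overlap each other. That of C1qc was at -40 to -31 on the opposite strand. C1qb also held a MAF match, at -131 to -126. C5ar1 held only a MAF match, at -17 to -12. Of all 32851 RefSeq promoters of the same length, 17.6% held the NF-kB letters, 23.3% the PU.1 letters, 16.1% the MAF letters and 9.56% the C/EBP letters. These matches describe letters, and no binding was measured.

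The deposited values are FPKM, reads per length of gene and library size as the authors scaled them. For the members this length was all annotated exon bases, 5695 for C4b, whose longest transcript has 5379 bases. Levels can therefore be compared between genes only roughly. Reads counted in genes, as recovered from the FPKM, were 20812192 to 29080130 per library, and reads outside genes are not known. Between 12636 and 12983 genes reached 1 FPKM in each library. Park7, which encodes DJ-1, averaged 5.08 ± 1.92 FPKM in DJ-1 KO OVA, 57.2 ± 3.78 FPKM in WT OVA and 46.7 ± 8.91 FPKM in WT PBS (SD, n = 3 each), which checks the genotype labels. DJ1_KO_OVA_263 stood apart: its summed macrophage and monocyte markers were 598 FPKM, against 1297 to 1474 FPKM in DJ1_KO_OVA_266 and DJ1_KO_OVA_267, and its summed T cell markers were 519 FPKM, against 171 and 191 FPKM. Lymphocyte markers also differed between the groups. The 7 T cell markers summed to 171 to 519 FPKM in DJ-1 KO OVA, 98.8 to 155 FPKM in WT OVA and 105 to 151 FPKM in WT PBS, and 3 were called higher against WT OVA. The 6 B cell markers summed to 86.2 to 215 FPKM in DJ-1 KO OVA, 269 to 357 FPKM in WT OVA and 297 to 343 FPKM in WT PBS, and 3 were called lower against WT OVA. The part of these shifts in the C3 and C5ar1 results was not tested. Type 2 alveolar cell markers summed to 6626 to 14167 FPKM in DJ-1 KO OVA, 32960 to 42037 FPKM in WT OVA and 25523 to 42443 FPKM in WT PBS. Sftpc was the largest part, 5089 of the 6626 FPKM in DJ1_KO_OVA_267 and 35280 FPKM in WT OVA replicate 5. Against WT OVA all 9 markers were negative, but only 2, Lamp3 and Napsa, were called lower. Slc34a2 averaged 216 FPKM in DJ-1 KO OVA and 212 FPKM in WT OVA. Hepatocyte markers summed to 0.371 to 2.15 FPKM over the 9 libraries, with Serpina1a at 0 in all of them.

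In DJ-1 KO OVA, C3 rose and C5ar1 fell against WT OVA. These were 1 member called higher and 1 called lower of 9, by limma with an adjusted p below 0.05 over all tested genes, against 5.93% of all tested genes called higher and 8.24% called lower. Together they were 2 of 9, against 14.2% of all genes called in either direction, and the same 2 passed an unadjusted p below 0.05, against 35.2% of all genes. The other 7 members were not called. Differences are on the log2(FPKM + 0.5) scale, which understates changes of low genes. Over the members the median log2 difference was 0.15, with 5 positive and 4 negative, while over all tested genes it was 0.00. When the libraries were instead rescaled to equal FPKM sums, the median of all genes moved by 0.46 on the log2 scale. The calls then stood at 4432 higher and 602 lower, against 1051 higher and 1459 lower with the authors' scaling.

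**Figure D1:**
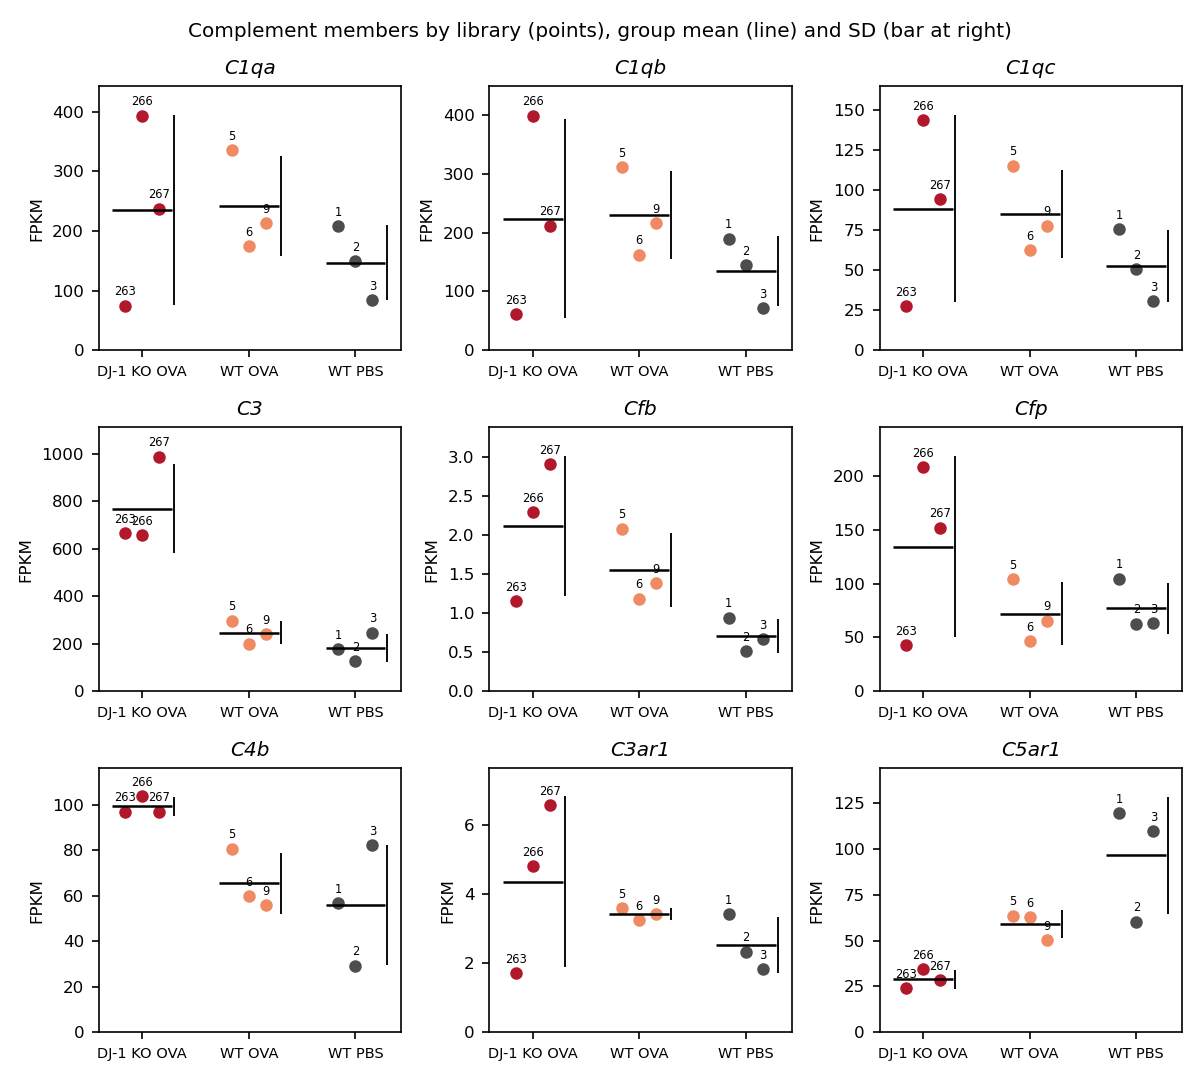
FPKM of each of the 9 complement genes in every library of DJ-1 KO OVA, WT OVA and WT PBS; points are libraries, horizontal lines are group means and vertical bars are 1 SD either side. C3 is high in the knockout libraries (657 to 988 FPKM) and C5ar1 is low in them (24.1 to 34.5 FPKM), while the 3 C1q genes spread widely within every group.

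The 3 C1q genes encode the A, B and C chains of the recognition molecule that starts the classical pathway. C1qa (ENSMUSG00000036887, chromosome 4, 136895917 to 136898803) had 74.7, 393 and 237 FPKM in the 3 DJ-1 KO OVA libraries in the order above, 336, 175 and 213 FPKM in replicates 5, 6 and 9 of WT OVA, and 208, 149 and 84.1 FPKM in replicates 1, 2 and 3 of WT PBS. DJ1_KO_OVA_263 was the lowest of all 9 and DJ1_KO_OVA_266 the highest, and the knockout libraries spanned both wild-type groups. C1qb (ENSMUSG00000036905, 136880129 to 136886187) had 61.2, 398 and 211 FPKM in DJ-1 KO OVA, 310, 162 and 216 FPKM in WT OVA, and 189, 144 and 71.6 FPKM in WT PBS. C1qc (ENSMUSG00000036896, 136889804 to 136893065) had 27.4, 144 and 94.4 FPKM in DJ-1 KO OVA, 115, 62.4 and 77.8 FPKM in WT OVA, and 75.7, 50.8 and 30.9 FPKM in WT PBS. The same libraries were high and low for all 3 genes, and every pair of groups overlapped.

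None of the 3 chains was called in any comparison. C1qa averaged 235 ± 159 FPKM in DJ-1 KO OVA and 241 ± 83.9 FPKM in WT OVA, a log2 difference of -0.28 with a 95% interval of -1.52 to 0.96. For C1qb the difference was -0.36 (95% interval -1.70 to 0.99) and for C1qc it was -0.19 (-1.40 to 1.02). The adjusted p was 0.75, 0.70 and 0.83 for C1qa, C1qb and C1qc by limma. Each interval included 0. Without DJ1_KO_OVA_263 the signs turned, to 0.39 for C1qa, 0.39 for C1qb and 0.50 for C1qc, and they were also positive with FPKM sums made equal or with quantile scaling. Macrophage and monocyte markers, 12 genes, summed to 598 to 1474 FPKM in DJ-1 KO OVA, 1287 to 1610 FPKM in WT OVA and 1637 to 2138 FPKM in WT PBS. Apoe and Cd14 weigh most in this sum, with 1095 and 495 of the 2138 FPKM in WT PBS replicate 1. Apoe averaged 276 FPKM in DJ-1 KO OVA and 644 FPKM in WT OVA and was called lower. Adgre1 (31.9 and 35.0 FPKM) and Cd68 (184 and 160 FPKM) were not called. The 10 resident alveolar macrophage markers summed to 709 to 2833 FPKM in DJ-1 KO OVA, 1324 to 2391 FPKM in WT OVA and 929 to 1569 FPKM in WT PBS. Ear2 was the largest part, 2146 of the 2833 FPKM in DJ1_KO_OVA_267. Against WT OVA, 7 of the 10 were negative. Marco (3.64 and 24.8 FPKM), Ear1 (14.2 and 223 FPKM) and Cidec (9.70 and 32.0 FPKM) were called lower. Itgax, also a complement receptor gene, was called higher. DJ1_KO_OVA_263 was the lowest of the 9 for both sums as for C1q, and their part in the C1q levels was not tested.

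The C1q chains moved together from library to library more closely than any other pair of members. The root mean square difference between their log2 profiles over 9 libraries was 0.0611 for C1qa and C1qc, 0.0977 for C1qa and C1qb and 0.132 for C1qb and C1qc. The next closest pair of members, Cfb and C3ar1, was at 0.316, and the most distant pair, C3 and C5ar1, at 1.61. The log2 ratio of C1qa to C1qc spanned 0.224 over the 9 libraries, while C1qa itself spanned 2.4. The 3 genes lie in the order C1qb, C1qc and C1qa on the minus strand, with gaps of 3617 and 2852 bases. Their exons shared no window of 50 bases, so reads of one chain were not shared with another by sequence. C1q levels are read from RNA of total lung cells, where fewer cells of a type and less RNA per cell cannot be told apart. The same holds for every member. Csf1r, the receptor for a macrophage growth factor, gave a log2 ratio of C1qa to Csf1r of 1.55, 2.05 and 1.64 in DJ-1 KO OVA, 1.94, 1.42 and 1.26 in WT OVA, and 0.54, 0.76 and -1.17 in WT PBS. Both ovalbumin groups lay above all 3 saline libraries, as a description without a test. Csf1r itself averaged 65.5 ± 35.8 FPKM in DJ-1 KO OVA, 80.6 ± 13.3 FPKM in WT OVA and 140 ± 50.5 FPKM in WT PBS. Against Mrc1, the mannose receptor of macrophages, the order was different: the log2 ratio of C1qa to Mrc1 was 0.24, 2.52 and 0.75 in DJ-1 KO OVA, 3.8, 3.06 and 3.03 in WT OVA, and 3.30, 3.16 and 2.15 in WT PBS. There the wild-type groups overlapped and the lowest values were in the knockout, so the pattern depends on the macrophage gene used.

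**Figure D2:**
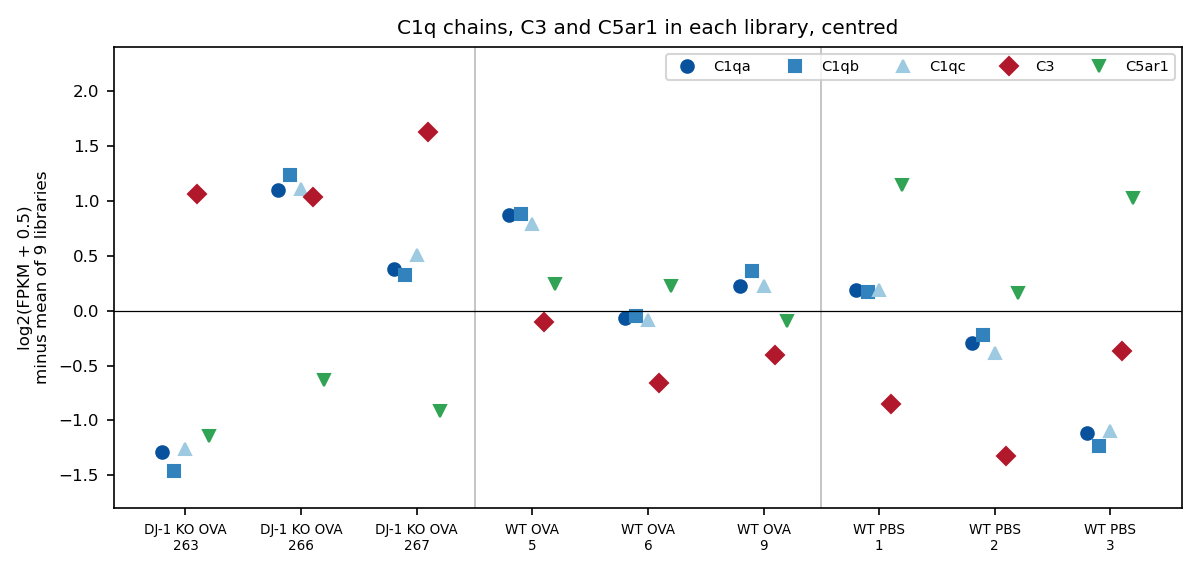
Levels of C1qa, C1qb, C1qc, C3 and C5ar1 in every library as log2(FPKM + 0.5), each centred on its own mean over the 9 libraries, with DJ-1 KO OVA, WT OVA and WT PBS from left to right. The C1q points lie almost on top of each other in each library; in the knockout libraries C3 lies above 0 and C5ar1 below it.

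C3, the central component on which all pathways converge, had the highest mean FPKM of the members in every group, although C1qa exceeded it in WT OVA replicate 5 and in WT PBS replicates 1 and 2. C3 (ENSMUSG00000024164, chromosome 17, 57203970 to 57228136) had 666, 657 and 988 FPKM in the 3 DJ-1 KO OVA libraries, 297, 202 and 241 FPKM in replicates 5, 6 and 9 of WT OVA, and 177, 127 and 247 FPKM in replicates 1, 2 and 3 of WT PBS. All 3 knockout libraries lay above every wild-type library, and the wild-type groups overlapped. The mean was 770 ± 188 FPKM in DJ-1 KO OVA and 247 ± 48.0 FPKM in WT OVA (SD, n = 3 each). It rose 3.1-fold, a log2 difference of 1.63 (SE 0.31, 95% interval 0.94 to 2.33; limma adjusted p = 0.015). The call was lost, with the difference kept positive, without DJ1_KO_OVA_267 (adjusted p = 0.067), without WT OVA replicate 6 (0.06) and without WT OVA replicate 9 (0.055). It held without DJ1_KO_OVA_263 (1.72, adjusted p = 0.022), and with FPKM sums made equal the difference was 2.25 (adjusted p = 0.0056). With DJ1_KO_OVA_263 and WT OVA replicate 6 both left out, a choice made after seeing the data, the adjusted p was 0.074.

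Among 5 ratios of C3 to other genes, the log2 ratio to Mrc1 varied least over the 9 libraries, by 0.896, while C3 itself varied by 2.96. The ratio to the collagen gene Col1a2 varied by 1.59, to C4b by 1.76, to C3ar1 by 2.91 and to the surfactant gene Sftpb by 5.24. Mrc1 is also among the 3 genes nearest to C3 in profile, so its narrow ratio is not a separate result. Mrc1 averaged 91.0 ± 43.6 FPKM in DJ-1 KO OVA and 23.7 ± 2.56 FPKM in WT OVA, and it rose by 1.83 on the log2 scale (limma adjusted p = 0.0079). Of the 12 macrophage and monocyte markers, Mrc1 was the 1 called higher and 2 were called lower, and the median log2 difference of that list was -0.32. Fibroblast markers, 9 genes, summed to 593 to 1037 FPKM in DJ-1 KO OVA, 827 to 1190 FPKM in WT OVA and 835 to 989 FPKM in WT PBS, and 3 were called higher and 1 lower against WT OVA. The part of these cell types in the C3 result was not tested.

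C4b encodes mouse C4, which joins C2 in the enzyme that cleaves C3 in the classical and lectin pathways. C4b (ENSMUSG00000073418, chromosome 17, 34728380 to 34743882) had 97.0, 104 and 97.1 FPKM in DJ-1 KO OVA, 80.9, 59.9 and 55.9 FPKM in WT OVA, and 56.7, 29.4 and 82.3 FPKM in WT PBS. The 3 knockout libraries were nearly equal and above all 6 wild-type libraries. The log2 difference from WT OVA was 0.61 (SE 0.33, 95% interval -0.12 to 1.35), and it was not called by limma (adjusted p = 0.21). It was called when FPKM sums were made equal (1.23, adjusted p = 0.042). C4b and its near copy C4a share 35.2% of the 50-base windows of C4b, and C4a had 0.02 to 0.20 FPKM, so the division of reads between them is uncertain.

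Members that did not overlap between DJ-1 KO OVA and WT OVA were C3 and C4b above and C5ar1 below, 3 of 9, against 37.2% of all tested genes. With 3 libraries on each side, the smallest two-sided p an exact permutation test allows is 0.1. The share of members lies close to that of all genes.

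Cfb encodes factor B, the enzyme chain of the alternative pathway, and Cfp encodes properdin, which holds its C3 convertase together. Cfb (ENSMUSG00000090231, chromosome 17, 34856374 to 34862518) had 1.15, 2.29 and 2.91 FPKM in DJ-1 KO OVA, 2.08, 1.19 and 1.39 FPKM in WT OVA, and 0.944, 0.517 and 0.668 FPKM in WT PBS. It had the lowest listed level of the members in every group, with 30 to 201 reads per library. The 2 ovalbumin groups overlapped, and every one of their libraries lay above all 3 saline libraries. Against WT OVA the log2 difference in DJ-1 KO OVA was 0.31, which was not called (adjusted p = 0.46). The readthrough gene Gm20547 covers 79.5% of the exon bases of Cfb on the same strand, with 0 to 1 reads of its own. No source used here says how the counting treated reads in the shared bases; if they were dropped, the listed level of Cfb is too low, and its place below C3ar1 is uncertain.

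Cfp (ENSMUSG00000001128, chromosome X, 20925454 to 20931555) had 42.8, 208 and 152 FPKM in DJ-1 KO OVA, 104, 46.5 and 65.7 FPKM in WT OVA, and 104, 62.9 and 63.5 FPKM in WT PBS. DJ1_KO_OVA_266 and DJ1_KO_OVA_267 were above all 6 wild-type libraries and DJ1_KO_OVA_263 was below them. The log2 difference from WT OVA was 0.69 (95% interval -0.47 to 1.86; limma adjusted p = 0.36). Without DJ1_KO_OVA_263 it was 1.37 (adjusted p = 0.055), and with FPKM sums made equal it was 1.31 and called (adjusted p = 0.044).

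Of the receptors, C5ar1 was called against WT OVA and C3ar1 was not, and the difference between them was not tested. C5ar1, the receptor for C5a on neutrophils and macrophages (ENSMUSG00000049130, chromosome 7, 16246743 to 16259540), had 24.1, 34.5 and 28.4 FPKM in the 3 DJ-1 KO OVA libraries, 63.6, 62.9 and 50.3 FPKM in replicates 5, 6 and 9 of WT OVA, and 119, 60.2 and 110 FPKM in replicates 1, 2 and 3 of WT PBS. All 3 knockout libraries lay below every wild-type library, and the wild-type groups overlapped. C5ar1 averaged 29.0 ± 5.21 FPKM in DJ-1 KO OVA and 58.9 ± 7.51 FPKM in WT OVA, a log2 difference of -1.02 (SE 0.28, 95% interval -1.63 to -0.40; limma adjusted p = 0.039), or 2.02-fold lower. This call ended in 10 of 19 other settings, each with the difference still negative. With FPKM sums made equal the difference was -0.40 (adjusted p = 0.32), with quantile scaling -0.79 (0.081) and without a filter on low genes the adjusted p was 0.083. Leaving out a library ended it for DJ1_KO_OVA_263 (0.1) and DJ1_KO_OVA_267 (0.13), for WT OVA replicates 5 (0.12), 6 (0.1) and 9 (0.084) and for WT PBS replicate 1 (0.053), which enters through the shared variance. With DJ1_KO_OVA_263 and WT OVA replicate 6 both left out, a choice made after seeing the data, it was -0.84 (adjusted p = 0.2).

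Genes of neutrophils were also low in the knockout. The 10 neutrophil markers summed to 1444, 4448 and 1506 FPKM in DJ-1 KO OVA, 15064, 13118 and 19335 FPKM in WT OVA, and 16236, 24702 and 8634 FPKM in WT PBS. Against WT OVA all 10 had a negative log2 difference, and 7 of the 10 were called lower. Csf3r, the receptor for a neutrophil growth factor, averaged 51.4 ± 9.20 FPKM in DJ-1 KO OVA, 79.9 ± 4.18 FPKM in WT OVA and 150 ± 33.9 FPKM in WT PBS. The log2 ratio of C5ar1 to Csf3r was -0.79, -0.80 and -0.89 in DJ-1 KO OVA, -0.41, -0.33 and -0.60 in WT OVA, and -0.50, -0.88 and -0.63 in WT PBS. Csf3r is also the gene nearest to C5ar1 in profile, so this narrow ratio is not a separate result. The marker sum and C5ar1 were both lowest in the knockout libraries. Within WT PBS, replicate 2 had the highest sum and the lowest C5ar1, but S100a8 and S100a9 were 7517 and 15511 of its 24702 FPKM. The single markers went both ways there. Csf3r, Cxcr2, Mmp9 and Ltf were lowest in replicate 2, as C5ar1 was. Ly6g, S100a8, S100a9, Mmp8, Retnlg and Camp were highest in it. The part of neutrophils in the C5ar1 result was not tested.

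**Figure D3:**
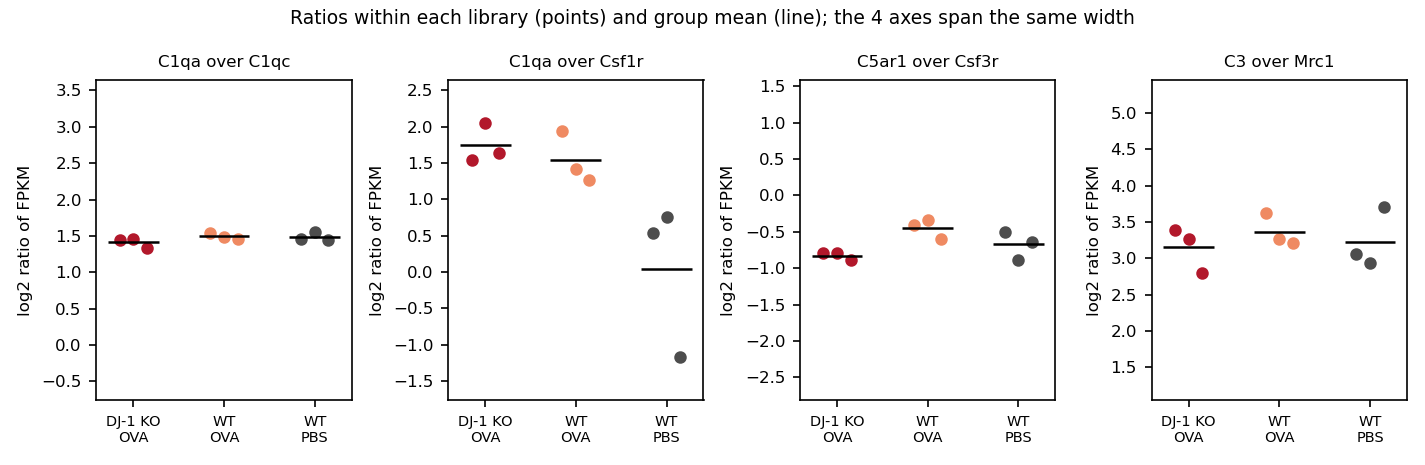
Log2 ratios of FPKM in each library (points) with group means (lines) for C1qa over C1qc, C1qa over Csf1r, C5ar1 over Csf3r and C3 over Mrc1, with DJ-1 KO OVA, WT OVA and WT PBS from left to right. The C1qa to C1qc ratio stays within 1.33 to 1.56 in all 9 libraries, while the C1qa to Csf1r ratio is lower in the 3 saline libraries (-1.17 to 0.76) than in the others.

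C3ar1, the receptor for C3a (ENSMUSG00000040552, chromosome 6, 122847138 to 122856161), had 1.71, 4.81 and 6.57 FPKM in DJ-1 KO OVA, 3.59, 3.24 and 3.43 FPKM in WT OVA, and 3.41, 2.33 and 1.83 FPKM in WT PBS. DJ1_KO_OVA_263 was the lowest of all 9 and DJ1_KO_OVA_266 and DJ1_KO_OVA_267 were the highest. The log2 difference from WT OVA was 0.15 (95% interval -0.67 to 0.98; limma adjusted p = 0.79), and it ran from -0.19 to 0.65 when a single library was left out.

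**Figure D4:**
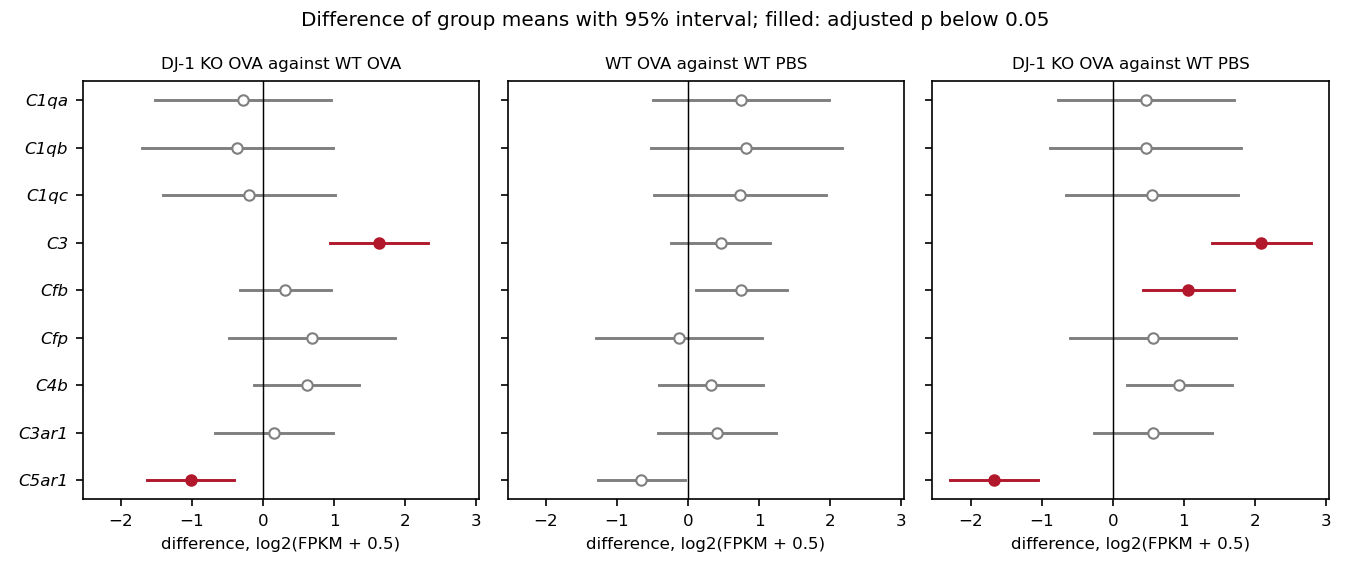
Log2 differences of the 9 members with 95% intervals, in 3 panels, the knockout under ovalbumin against WT OVA, WT OVA against WT PBS, and the knockout against WT PBS; filled points have an adjusted p below 0.05. C3 lies above 0 in the comparisons of the knockout (1.63 and 2.09) and C5ar1 below 0 (-1.02 and -1.67).

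No member was called for ovalbumin alone, WT OVA against WT PBS, where 1 of all tested genes, 0.00564%, was called. By limma at an unadjusted p below 0.05, 2 of 9 members passed, Cfb and C5ar1, against 6.47% of all genes, and limma-voom on recovered reads also called 0. The median log2 difference was 0.46, and 7 of 9 were positive. Cfb averaged 1.55 ± 0.470 FPKM in WT OVA and 0.710 ± 0.217 FPKM in WT PBS, a log2 difference of 0.75 (95% interval 0.12 to 1.39; unadjusted p = 0.025, adjusted p = 0.73). It was the 1 member whose groups did not overlap, against 14.8% of all genes. C5ar1 averaged 58.9 ± 7.51 FPKM in WT OVA and 96.4 ± 31.7 FPKM in WT PBS (-0.65, 95% interval -1.27 to -0.04; unadjusted p = 0.039, adjusted p = 0.73), and its groups overlapped. The C1q chains had differences of 0.75 (C1qa), 0.82 (C1qb) and 0.74 (C1qc), each with an interval that included 0.

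Against WT PBS, the DJ-1 KO OVA libraries differed by both genotype and challenge, and these cannot be told apart. The comparison shares libraries with the others. Called members were 2 higher, C3 and Cfb, and 1 lower, C5ar1, against 4.07% of all tested genes called higher and 4.47% called lower. That is 3 of 9, against 8.54% called in either direction, and 4 of 9 passed an unadjusted p below 0.05, against 26.4%. The median over the members was 0.56, and 8 of 9 were positive. With FPKM sums made equal, the calls over all genes were 968 higher and 432 lower, against 721 and 792. The mean level of C3 was 770 ± 188 FPKM in DJ-1 KO OVA and 184 ± 60.2 FPKM in WT PBS, 4.26-fold higher (log2 difference 2.09, 95% interval 1.4 to 2.78; limma adjusted p = 0.005). C5ar1 averaged 29.0 ± 5.21 FPKM in DJ-1 KO OVA and 96.4 ± 31.7 FPKM in WT PBS, 3.18-fold lower (-1.67, 95% interval -2.28 to -1.06; adjusted p = 0.0076). Cfb averaged 2.12 ± 0.892 FPKM in DJ-1 KO OVA and 0.710 ± 0.217 FPKM in WT PBS, a log2 difference of 1.07 (95% interval 0.43 to 1.70; adjusted p = 0.047), and this call was lost in 12 of 19 settings, among them without any single library other than DJ1_KO_OVA_263 (adjusted p of 0.059 to 0.18). C4b was higher in all 3 DJ-1 KO OVA libraries than in every WT PBS library, but was not called (0.94, 95% interval 0.20 to 1.67; adjusted p = 0.11); without WT PBS replicate 3 it was called (1.27, adjusted p = 0.044). C3ar1 was not called (0.56, adjusted p = 0.36), but was without DJ1_KO_OVA_263 (1.05, adjusted p = 0.037). The members whose groups did not overlap were C3, C4b and Cfb above and C5ar1 below, 4 of 9, against 25.6% of all tested genes.

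Levels can be ordered roughly within a group, since FPKM depend on the gene length used. In DJ-1 KO OVA, C3 was first (770 FPKM) and its libraries did not overlap those of C1qa, then followed C1qa, C1qb, Cfp, C4b and C1qc, whose neighbours overlapped, and C5ar1 (29.0 FPKM), which did not overlap C3ar1 below it. In WT OVA, C3, C1qa and C1qb overlapped each other (247, 241 and 230 FPKM), C1qc, Cfp, C4b and C5ar1 formed a lower overlapping stretch, and C3ar1 and Cfb were lowest. In WT PBS the 7 members from C3 to C1qc all overlapped their neighbours, with C3ar1 and Cfb below them. The place of Cfb is uncertain in every group because of the bases it shares with Gm20547. By mean, C5ar1 stood below Cfp, C4b and C1qc in both ovalbumin groups and above them in WT PBS.

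The genes nearest in profile to each member were searched among 6614 genes by the root mean square difference of centred log2 levels over the 9 libraries. Clec10a, a lectin of macrophages and dendritic cells, was the closest to C1qa (0.212) and C1qc (0.209), and Clec4b1 was the closest to C1qb (0.257). C3 lay nearest to Aldh1a2 (0.212), Ccdc80 (0.239) and Mrc1 (0.277), and C5ar1 to Csf3r (0.191) and Mmp9 (0.219). Cfp lay nearest to P2ry6 (0.185), Cfb to the chemokine Ccl2 (0.189), C3ar1 to Pld3 (0.198) and C4b to Aars (0.254). These are descriptions of 9 libraries in which group, depth and cell make-up are shared.

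**Figure D5:**
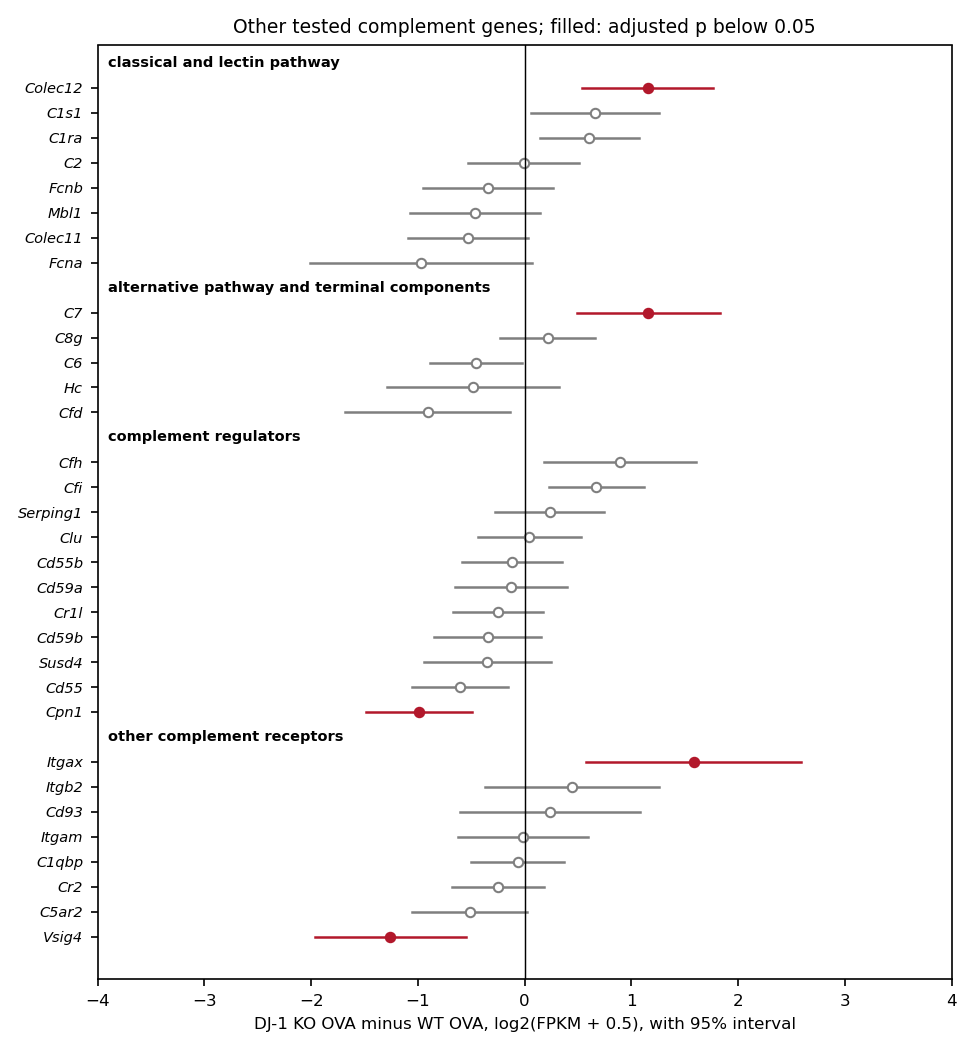
Differences between DJ-1 KO OVA and WT OVA of the 32 other complement genes tested, by role, on the log2(FPKM + 0.5) scale with 95% intervals; filled points have an adjusted p below 0.05. Itgax lies highest (1.58) and Vsig4 lowest (-1.26).

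The other complement genes were a list of 49, of which 32 were tested. Against WT OVA, 3 were called higher and 2 lower in DJ-1 KO OVA, with 12 positive, 20 negative and a median log2 difference of -0.12. That is 5 of 32, close to the 14.2% of all tested genes called (5.93% higher and 8.24% lower), so the number of calls is not a result about this list. The higher genes were Itgax, the alpha chain of complement receptor 4 (162 ± 95.7 FPKM in DJ-1 KO OVA and 48.1 ± 14.4 FPKM in WT OVA; 1.58, adjusted p = 0.045), C7, part of the membrane attack complex (51.7 ± 17.5 FPKM in DJ-1 KO OVA and 22.1 ± 4.21 FPKM in WT OVA; 1.16, adjusted p = 0.035), and Colec12, a scavenger receptor of the collectin family (15.3 ± 6.04 FPKM in DJ-1 KO OVA and 6.27 ± 0.791 FPKM in WT OVA; 1.15, adjusted p = 0.027). The lower genes were Vsig4, a macrophage receptor for C3 fragments (0.382 ± 0.197 FPKM in DJ-1 KO OVA and 1.59 ± 0.334 FPKM in WT OVA; -1.26, adjusted p = 0.032), and Cpn1, the catalytic chain of the enzyme that inactivates C3a and C5a (0.627 ± 0.270 FPKM in DJ-1 KO OVA and 1.70 ± 0.256 FPKM in WT OVA; -0.99, adjusted p = 0.024). By role, 1 of 8 classical and lectin genes, 1 of 5 alternative and terminal genes, 1 of 11 regulators and 2 of 8 receptors were called, counts too small to set any role apart from the 14.2% of all genes. The count was 0 without DJ1_KO_OVA_267 or without any 1 of the WT OVA replicates, 2 without DJ1_KO_OVA_263 and 9 without DJ1_KO_OVA_266. It was also 9 with equal FPKM sums, 8 higher and 1 lower. Of the 4 others with a mean of at least 50 FPKM, all but Itgax did not pass the test. Hc, which encodes C5, averaged 76.0 ± 41.4 FPKM in DJ-1 KO OVA and 99.9 ± 26.5 FPKM in WT OVA. Serping1, the C1 inhibitor, averaged 165 ± 22.8 FPKM in DJ-1 KO OVA and 140 ± 17.9 FPKM in WT OVA, and Itgb2, the beta chain of complement receptors 3 and 4, averaged 273 ± 110 FPKM in DJ-1 KO OVA and 191 ± 37.6 FPKM in WT OVA.

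For ovalbumin alone, 0 of the 32 were called by limma, 3 passed an unadjusted p below 0.05, against 6.47% of all tested genes, and limma-voom called 0. Vsig4 had the largest difference (0.92, adjusted p = 0.73). Against WT PBS, 6 of the 32 were called in DJ-1 KO OVA, where 8.54% of all tested genes were (4.07% higher and 4.47% lower). The 3 called higher were Itgax (1.80, adjusted p = 0.038), Colec12 (1.09, adjusted p = 0.037) and Cfi, the protease that cleaves C3b (0.97, adjusted p = 0.018). The 3 called lower were Cfd, the protease that cuts factor B (-1.63, adjusted p = 0.02), Cpn1 (-1.01, adjusted p = 0.024) and C5ar2, the second C5a receptor and the gene next to C5ar1, 2589 bases away (-0.95, adjusted p = 0.039). The count was 0 without DJ1_KO_OVA_267, 10 without DJ1_KO_OVA_266, and 1 without WT PBS replicate 1 or 2. Cfd had 0, 6 and 0 reads in the 3 DJ-1 KO OVA libraries, against 0.508, 2.43 and 1.45 FPKM in WT PBS, so its fitted difference depends on the pseudocount. The same holds for Cfi, with 1.15, 0.897 and 1.09 FPKM in DJ-1 KO OVA. In WT PBS it had 0.211, 0.395 and 0.264 FPKM, from 10, 18 and 18 reads. C5ar2 averaged 0.754 ± 0.152 FPKM in DJ-1 KO OVA and 1.92 ± 0.240 FPKM in WT PBS. Of the 14 tested genes next to the members, 2 were called against WT OVA, at the same rate as the 14.2% of all genes: Zbtb40 beside C1qa (0.83, adjusted p = 0.027) and Syn1 beside Cfp (1.57, adjusted p = 0.04). Against WT PBS 2 were called, Syn1 and C5ar2, against 8.54% of all genes.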

How the data were processed

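Lung RNA was sequenced by the authors in 9 libraries, 3 per group, with Illumina TruSeq libraries of total RNA, per the labels' protocols. Trimmomatic, HISAT2, HTSeq and the build GRCm38.p6 are named in the submitters' processing notes; no source used here gives their versions, roles or use of strand. The deposited table holds FPKM per gene, per the file headers, with gene lengths and positions. Its values above 0 were whole multiples of 1 read for 100% of values, within 0.01 reads, so reads were recovered for depth and for a limma-voom fit. The authors' library sizes were 0.890 (WT OVA 9) to 1.21 (DJ1_KO_OVA_263) times the recovered reads.

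Values were tested as log2(FPKM + 0.5) for 17716 genes (mean FPKM 0.2 or more), in a single limma-trend fit (limma 3.58.1, R 4.3.3) of 3 group means with 6 residual degrees of freedom and Benjamini-Hochberg adjustment over all tested genes; genes were called below 0.05. The count test planned for deposited counts was not used, since the unit is FPKM. The fit was also run on simulated reads with known changes. These had the same spread for every gene and no outlying library, so they do not cover a library such as DJ1_KO_OVA_263. Named genes were the 9 members, called genes of the complement list and those with a mean of at least 50 FPKM. The 3 nearest in profile per member and the neighbours were also named. Ratio partners were picked by hand and not by a rule. Members and gene lists were chosen with earlier results of these data known. Alternatives were 19 other settings: pseudocounts of 0.1 and 1, no filter or a mean of 1, equal FPKM sums, quantile scaling, only the groups compared, no variance trend, limma-voom, each library left out, and DJ1_KO_OVA_263 with WT OVA 6 left out.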

Additional observations from a re-analysis of the deposited data

How the results depend on the processing

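No paired analysis was possible because the groups share no replicate numbers. Members called in DJ-1 KO OVA against WT OVA were 2. They were 1 without a filter, 1 with quantile scaling, 0 without DJ1_KO_OVA_263 and WT OVA 6 together (chosen after seeing the data), and 0 to 2 when a single library was left out. With equal FPKM sums the set changed: C3, C4b and Cfp were called, and C5ar1 was not. Against WT PBS the members called were 3, and 2 to 4 when a single library was left out. For WT OVA against WT PBS the members called were 0 throughout. Other complement genes called against WT OVA were 5, with 0 without a filter, 9 with equal FPKM sums, 1 with only those groups, 1 with the pair left out and 0 to 9 over single libraries. Against WT PBS they were 6, with 2 without a filter, 2 with only those groups, 3 with the pair left out and 0 to 10 over single libraries. The cause of these shifts was not tested.

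Differences that turned sign were all uncalled. Against WT OVA, C1qa gave 0.34 with equal sums, 0.25 with quantile scaling, 0.19 with the pair left out and -0.80 to 0.39 over single libraries; C1qb gave 0.26, 0.13, 0.16 and -0.96 to 0.39; C1qc gave 0.42, 0.095, 0.30 and -0.69 to 0.50. C3ar1 ran from -0.19 to 0.65. Against WT PBS, C1qa ran from -0.048 to 1.15 and C1qb from -0.14 to 1.21. For WT OVA against WT PBS, Cfp was 0.14 with the pair left out and -0.43 to 0.14 over single libraries, and C4b ran from -0.078 to 0.66. Cfb had the fewest reads of the members, 30 to 201 per library; whether this reflects its level or reads not counted where it overlaps Gm20547 was not tested.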
